A study of Mus musculus with 56 samples.

Results

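The regions described here are the parts of the genome where p65, the RelA subunit of the transcription factor NF-κB, gave a ChIP-seq peak in mouse bone marrow-derived macrophages (BMDMs) only after lipopolysaccharide (LPS). Overlapping peaks of the 8 p65 samples were merged into 51419 regions (mm10). A region was selected on its p65 peaks: it had 1 in all 4 samples with LPS (ctrl/LPS and IL-4 PT/LPS, 2 samples each) and none in any of the 4 samples without LPS (ctrl/ctrl and IL-4 PT/ctrl). This left 7693 regions, 15.0% of all merged p65 regions and 42.5% of the 18096 with a peak in all 4 LPS samples. The other 10403 of the latter, which also had a peak in at least 1 sample without LPS, serve as the comparison. The rule fixes the presence of p65 with LPS and its absence without it, so the difference in p65 between these conditions is not a finding. A missing peak says that nothing passed the peak caller's cut-off there, not that p65 was absent.

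LPS, a component of the outer membrane of Gram-negative bacteria, binds Toll-like receptor 4 on macrophages. The kinase cascade below the receptor leads to degradation of the IκB inhibitors, and p65 then moves into the nucleus, where it binds κB elements in promoters and enhancers of cytokine, chemokine, and feedback genes. In macrophages many of these enhancers are already held by PU.1, a lineage-determining factor, and AP-1 factors often bind beside p65. IL-4, a cytokine of type 2 immunity, drives alternative polarization through STAT6. RNA polymerase II phosphorylated on serine 5 (RNAPII-pS5) marks initiating polymerase and RNAPII-pS2 marks elongating polymerase, and both are also found at active enhancers, which are transcribed into enhancer RNA.

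The cells were BMDMs of wild-type mice aged 8 to 12 weeks, differentiated for 6 days with conditioned medium of L929 fibroblasts. ctrl/ctrl cells received neither stimulus, and IL-4 PT/ctrl cells had 24 hr of IL-4 at 20 ng/ml as pretreatment. ctrl/LPS cells received LPS for 1 hr without pretreatment (100 ng/ml in the labels, while the study's methods write 100 nM), and IL-4 PT/LPS cells received the same LPS after the IL-4 pretreatment. p65, RNAPII-pS5, and RNAPII-pS2 were measured in 2 samples of each of these groups. In a separate experiment, PU.1, the acetyltransferase p300, acetylated histone H3 lysine 27 (H3K27Ac, a mark of active enhancers and promoters), HDAC1, HDAC2, HDAC3, and RNAPII-pS5 were measured in 2 untreated samples and 2 samples given IL-4 for 1 hr, with no LPS in either group. The study's methods describe 2 independent biological replicates, and nothing in the labels ties a sample to an animal. The labels and the study's methods text give the HDAC3 antibody the same catalogue number as the H3K27Ac antibody, while the study's list of reagents gives HDAC3 a number of its own.

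As a check of the cell type, a RNAPII-pS5 peak lay within 1 kb of the start of 4 to 7 of 8 macrophage marker genes per sample of the LPS experiment. The same count was 0 to 1 of 5 for T cells, 0 for B cells, fibroblasts, and epithelial cells, and 0 for endothelial cells. Counting only peaks annotated as promoter, it was 0 to 2 of 8 for macrophages and 0 for the other types. Some samples stood apart. p300 in untreated replicate 1 gave 44787 peaks against 66710 to 69360 in the other 3 p300 samples. The IL-4 PT/LPS samples gave 36738 and 38955 p65 peaks, more than the 26305 and 26820 of ctrl/LPS. The ctrl/LPS samples gave 14476 and 15349 RNAPII-pS5 peaks against 17826 to 22149 in the other 3 groups. Reads were not in the files used here, so depth is unknown, and the spread between 2 samples is all that the tests can measure.

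To show what a κB element in an LPS-only region looks like, 5 members that hold one are given. They were picked for holding the strict κB pattern, GGANTTTCC on either strand, in a window of 300 bases centred on the strongest LPS peak, from the members named for the highest p65 scores or for a pathway gene. Most members do not hold it. Names give the nearest gene and the distance from its start in kilobases. Sequences are 81 bases of the + strand of mm10 (RefSeq, GRCm38.p6), and capitals mark the strict κB pattern and the AP-1 pattern TGANTCA.
Aebp2_-8.7Kb: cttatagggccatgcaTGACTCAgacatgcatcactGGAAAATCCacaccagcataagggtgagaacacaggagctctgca
Nek7_+23.4Kb: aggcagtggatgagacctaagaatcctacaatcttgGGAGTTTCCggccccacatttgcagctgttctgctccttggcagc
Gbp5_-26.8Kb: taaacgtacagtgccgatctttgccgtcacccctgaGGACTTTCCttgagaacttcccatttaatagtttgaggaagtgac
Fos_+36.8Kb: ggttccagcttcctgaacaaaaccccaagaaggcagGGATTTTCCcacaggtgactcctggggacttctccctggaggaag
Gch1_+29.2Kb: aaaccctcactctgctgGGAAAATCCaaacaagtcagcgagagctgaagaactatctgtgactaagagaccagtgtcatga
The stretches shown lie at chr6:140613957-140614037, chr1:138596228-138596308, chr3:142470143-142470223, chr12:85510594-85510674, and chr14:47160076-47160156, in the order given. The element near Aebp2 is intergenic and has an AP-1 pattern within the stretch, those in Nek7 and Gch1 are intronic, and those near Gbp5 and Fos are intergenic.

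AP-1 patterns were more frequent in the LPS-only regions than in the comparison, and κB patterns were about as frequent. In the 300-base windows, 3200 members (41.6%) held the AP-1 pattern TGANTCA, against 25.1% of the regions also bound without LPS, 26.4% of all p65 regions, and 7.81% of 32817 gene promoters of the same length. The strict κB pattern was in 720 members (9.36%), 8.35% of the regions also bound without LPS, 11.7% of those with p65 in all 8 samples, 6.32% of all regions, and 1.26% of promoters. The loose κB pattern, GGNNNTTCC, was in 35.0% of members, 37.1% of the regions also bound without LPS, and 18.5% of promoters. It contains the strict pattern, and both overlap other patterns by chance. The PU.1 pattern GAGGAAGT was in 8.33% of members and 13.9% of the regions also bound without LPS (3.2% of promoters). The C/EBP pattern TTGCNNAA was in 20.6% against 22.5% (10.8% of promoters). A pattern for interferon-regulatory factors, with 2 GAAA blocks 2 letters apart, was in 10.7% of members against 8.8% (3.43% of promoters). A STAT pattern, TTC and GAA 4 letters apart, was in 10.6% against 10.9% (6.94% of promoters). A match is a run of letters and no measured binding.

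**Figure D1:**
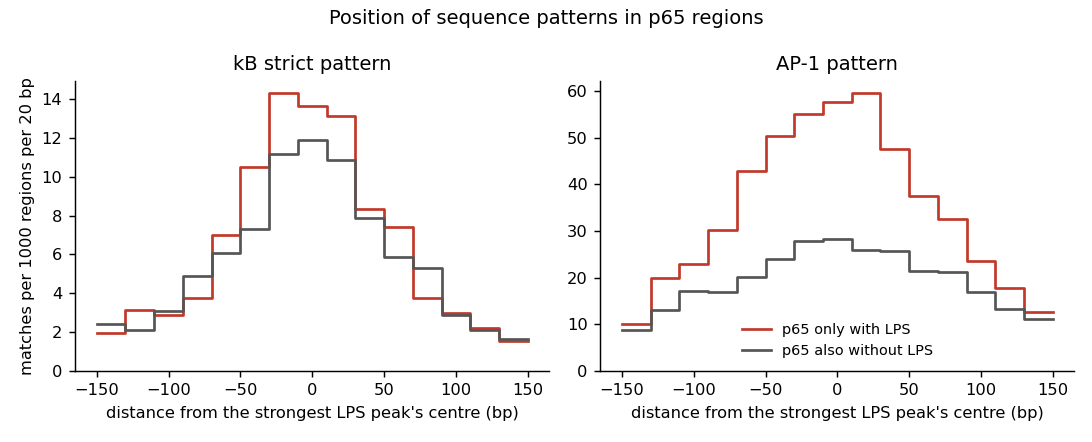
Matches of the strict κB pattern (left) and the AP-1 pattern (right) per 1000 regions in bins of 20 bp, by distance from the centre of the strongest LPS peak in bp, for p65 regions bound only with LPS (red) and those also bound without LPS (grey). Both patterns peak at the centre, and the AP-1 pattern reached 59.7 matches per 1000 LPS-only regions in the bin from 10 to 30 bp.

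Both patterns lay near the centre of the LPS-only regions, with a median distance of 36.5 bp for the strict κB pattern and 40.5 bp for AP-1. Only 20 members held 2 or more strict κB matches, while 681 held 2 or more AP-1 matches. Members with the strict κB pattern had a median p65 score of 15.4 over the LPS samples, against 12.2 in members without it, and 20.1% of them had a p300 peak in untreated macrophages, against 59.2%. Members with AP-1 more often gained RNAPII-pS2 with LPS, defined as a peak in both ctrl/LPS samples and neither ctrl/ctrl sample: 41.4% did, against 22.7% of members without AP-1. With the strict κB pattern 20.7% gained it, against 31.5% of members without that pattern. Members with AP-1 also more often had p300 in untreated macrophages (66.3%, against 47.8% without AP-1). The split by pattern is not given over all p65 regions, so it is not shown to be particular to members. These shares are descriptions over regions that share samples, and no test was made over regions.

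The members lay mostly away from gene starts. The files placed 3565 (46.3%) in introns, 3433 (44.6%) in intergenic sequence, and 435 (5.65%) at promoters, against 11.1% at promoters for the regions also bound without LPS and 10.7% for all p65 regions. The median distance to the nearest gene start was 21.8 kb, against 17.1 kb, and 8.25% lay within 1 kb of a start, against 14.3%. LTR repeats were the annotation of 8.92% of members, 5.75% of the regions also bound without LPS, and 8.18% of all regions. Widths ran from 230 to 1470 bp with a median of 463 bp. The members had 4597 nearest genes, of which 2993 had a single member and 185 had 5 or more. The files named 1700016G22Rik for the most members, 19 within 527 kb of chromosome 13. Lpp, which codes for a focal adhesion protein, followed with 18, then Ext1, a heparan sulfate polymerase gene, with 15, and the transcription factor gene Foxp1 and H2afy3 with 13 each. The number of all p65 regions at each gene is not given beside these counts, so they show no excess of LPS-only regions there. The nearest gene is a label from the files and not a measured target.

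The scores behind the selection were moderate. Scores are the peak caller's significance values on a −log10 scale. Members had median scores of 9.84 and 10.1 in the ctrl/LPS samples and 13.7 and 14.8 in the IL-4 PT/LPS samples, and the regions with p65 in all 8 samples had LPS medians of 25.6 to 31.8. Between 55.9% and 72.8% of members scored above the median of their sample's regions. Just outside the rule, 4365 regions with a peak in 3 of the 4 LPS samples and none without LPS had medians of 5.32 to 7.8, and 2473 regions with all 4 LPS peaks and 1 without LPS had LPS medians of 11.1 to 15.7 and medians of 4.78 to 5.22 in the sample without LPS. The scores on both sides of the rule overlapped.

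The strongest LPS-only peak was Ell2_+47.0Kb (chr13:75754207-75754794), in an intron of the gene of an elongation factor for RNAPII. Its p65 scores were 126 and 140 in ctrl/LPS and 137 and 154 in IL-4 PT/LPS. No peak of PU.1, p300, H3K27Ac, or an HDAC was found there in untreated macrophages, and RNAPII-pS2 was at 8.53 and 9.49 in ctrl/LPS and 5.56 and 4.44 in IL-4 PT/LPS with no peak in the 4 samples without LPS. Other strong members were Tmem2_+42.2Kb, in an intron of a hyaluronidase gene (111 and 83.2, then 138 and 133), and Nfkb1_+51.2Kb, in the gene of the p50 subunit and its precursor (101 and 89.8, then 120 and 119). Among the 10 highest, only H2-Ob_+11.2Kb, near a gene of antigen presentation, had a PU.1 peak in untreated macrophages (7.22 and 6.05), and none had H3K27Ac. A RNAPII-pS2 peak was present with LPS in all 4 LPS samples at each of the 10, and in 9 of them the ctrl/ctrl samples had none. The exception was Amz2_-15.3Kb, with a score of 7.05 in 1 ctrl/ctrl sample.

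In macrophages that had seen no LPS, the LPS-only regions were less often occupied than the regions also bound without LPS. PU.1 had a peak at 45.6% and 43.1% of members in the 2 untreated samples, against 82.1% and 79.2%. p300 was at 55.8% and 70.2% of members, against 92.2% and 96.6%. H3K27Ac was at 31.7% and 31.8% of members, against 65.1% and 64.9%. The corepressor-bound deacetylases showed the same order: HDAC1 was at 27.9% and 23.5% of members against 77.3% and 71.6%, HDAC2 at 24.3% and 22.7% against 72.4% and 67.9%, and HDAC3 at 14.0% and 8.49% against 56.8% and 45.6%. The lower p300 value came from untreated replicate 1, the sample with fewer peaks. Over all p65 regions the shares were 48.2% and 44.7% for PU.1 and 57.6% and 70.9% for p300, close to those of the members, and 40.5% and 40.3% for H3K27Ac. For the deacetylases they were 40.1% and 35.5% (HDAC1), 33.7% and 30.7% (HDAC2), and 20.4% and 14.7% (HDAC3). In each antibody the gap between the members and the regions also bound without LPS exceeded the difference between the 2 samples. The regions also bound without LPS had higher p65 scores with LPS, and the part that peak strength has in these shares was not tested.

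RNAPII was found at more of these regions with LPS. RNAPII-pS2 had a peak at 23.7% and 24.0% of members in ctrl/ctrl and at 61.4% and 61.6% in ctrl/LPS. The regions also bound without LPS went from 74.8% and 74.7% to 83.5% and 84.4%. RNAPII-pS5 went from 12.4% and 11.7% of members to 27.7% and 29.4%, and from 58.6% and 56.0% to 57.8% and 59.9% in the comparison. A RNAPII-pS2 peak was gained with LPS at 2347 members (30.5%), against 9.59% of the regions also bound without LPS, and 2231 of the 2347 (95.1%) had no ctrl/ctrl peak within 500 bp either. Over all p65 regions a RNAPII-pS2 peak was gained at 9.83%. RNAPII-pS5 was gained at 992 members (12.9%), against 9.01% of the comparison and 4.58% of all regions. At 1517 members (19.7%) neither form of RNAPII had a peak in any sample of the LPS experiment, against 4.76% of the comparison and 31.0% of all regions. One RNAPII peak can cover several p65 regions, so the regions are not independent, and in bulk samples fewer cells with RNAPII and less RNAPII per cell cannot be told apart.

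**Figure D2:**
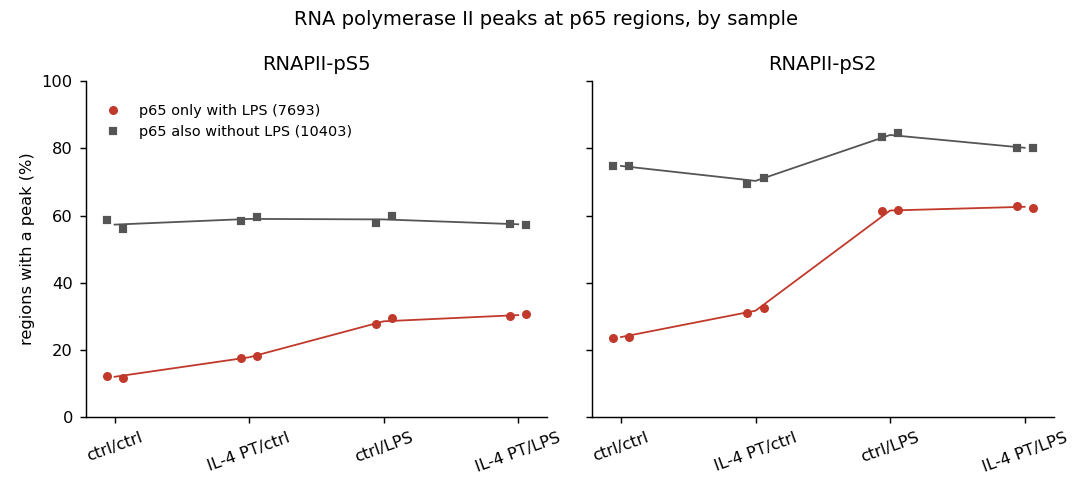
Share of regions (%) with a RNAPII-pS5 peak (left) or RNAPII-pS2 peak (right) in each sample of the 4 groups, for p65 regions bound only with LPS (red circles, 7693) and those also bound without LPS (grey squares, 10403); points are samples and lines join group means. The LPS-only regions rose in RNAPII-pS2 from 23.7% and 24.0% in ctrl/ctrl to 61.4% and 61.6% in ctrl/LPS.

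The scores moved in the same direction. A region entered a limma fit when 2 or more of the 8 samples of that antibody had a peak there, which 5473 members did for RNAPII-pS2 and 3148 for RNAPII-pS5. Of these, 2189 and 1268 had no peak in any sample without LPS, so they entered through the LPS samples alone and could not fall. The counts and medians over the members are therefore descriptions. With p of at most 0.05 as the call, 3056 members (55.8%) rose in RNAPII-pS2 in ctrl/LPS against ctrl/ctrl and 141 (2.58%) fell, where the background over all 30093 regions tested was 25.8% and 16.0%. The median log2 change was 1.67, against −0.05 over all regions. In RNAPII-pS5, 1150 members (36.5%) rose and 179 (5.69%) fell, against backgrounds of 17.0% and 21.0%, with medians of 1.05 and 0.18. When a peak was required in every sample, 406 of 903 members rose and 68 fell in RNAPII-pS2 with a median of 0.65, and 86 of 262 rose and 29 fell in RNAPII-pS5 with a median of 0.38. Without the peaks that scored under their sample's median, the medians were 0.39 and 0.28. After IL-4 PT the LPS response had the same direction, with 2763 members (50.5%) higher and 156 (2.85%) lower in RNAPII-pS2 (backgrounds of 27.2% and 12.2%), and 1044 (33.2%) higher and 236 (7.5%) lower in RNAPII-pS5 (backgrounds of 16.9% and 20.1%).

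**Figure D3:**
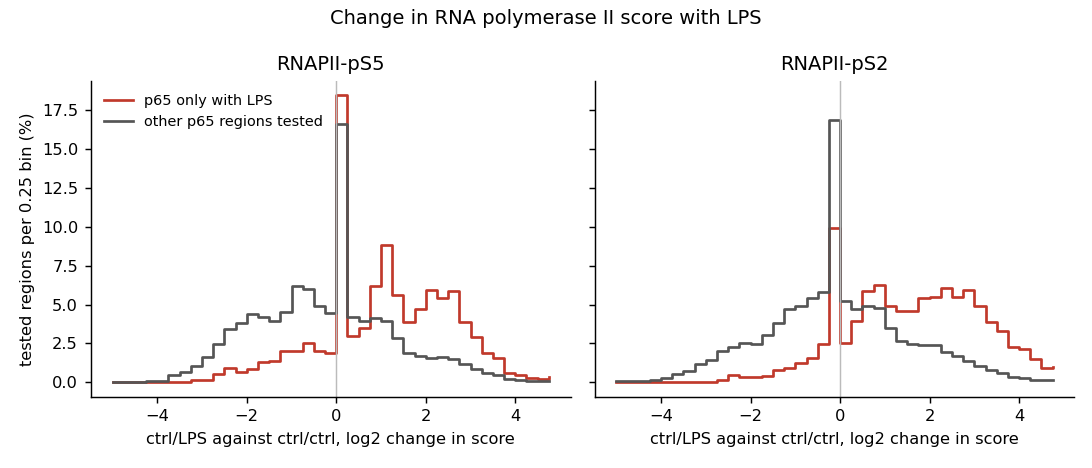
Distribution of the log2 change in RNAPII-pS5 score (left) and RNAPII-pS2 score (right) in ctrl/LPS against ctrl/ctrl, as the percentage of tested regions per bin of 0.25, for regions bound by p65 only with LPS (red) and the other p65 regions tested (grey). The LPS-only regions lie to the right of the others, with medians of 1.05 and 1.67, and the tall bin beside 0 holds regions without a peak in either group.

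Among the named members with the lowest p for a gain of RNAPII were intergenic regions, introns, and a chemokine promoter. Gdf3_-5.9Kb (chr6:122615736-122616242), near the gene of a TGF-β family ligand, had no RNAPII-pS2 peak in ctrl/ctrl and scores of 78.9 and 81.9 in ctrl/LPS, a log2 change of 5.66 ± 0.22 (SE, adjusted p = 0.00036). 4930529L06Rik_-52.6Kb went from no peak to 89.5 and 80.4 (5.74 ± 0.22), and 1600002D24Rik_+10.7Kb from no peak to 67.8 and 59.6 (5.32 ± 0.23). After IL-4 PT alone, RNAPII-pS2 was already present without LPS at 1600002D24Rik_+10.7Kb (21.5 and 27.8) and Gdf3_-5.9Kb (27.6 and 28.9). Changes from no peak are set against the lowest score in the files and have no true size. Samples set to that score differ only by centring, so the SE and adjusted p of such changes are not measured precision. Ccl4_-0.2Kb (chr11:83662210-83662627), at the promoter of the chemokine CCL4, had no RNAPII-pS5 peak in the 4 samples without LPS. With LPS its RNAPII-pS5 scores were 77.9, 77.7, 77.8, and 72.3 from peaks 4185 to 4281 bp wide, of which the region is a small part. Without LPS, weaker RNAPII-pS5 peaks (4.8 to 7.18) lay 53 to 904 bp outside the region. Scores there did not separate IL-4 PT/LPS from ctrl/LPS (−0.24 ± 0.22, adjusted p = 0.57).

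RNAPII fell at a minority of members. Hist1h1d_+1.3Kb, at the gene of a linker histone, had RNAPII-pS2 scores of 48.6 and 46.3 in ctrl/ctrl and 4.87 and 4.23 in ctrl/LPS (−3.58 ± 0.24, adjusted p = 0.00039). Gria3_-110.0Kb went from 20.0 and 16.2 to no peak, and Naa11_+72.0Kb from 12.7 and 16.2 to no peak. In RNAPII-pS5, Thbs1_+46.3Kb, near the thrombospondin 1 gene, went from 14.3 and 13.3 to no peak (−3.08 ± 0.21, adjusted p = 0.00095), and Ctdp1_-14.0Kb, near the gene of a polymerase phosphatase, from 14.4 and 12.8 to no peak. p65 scores with LPS at these 5 regions were between 3.05 and 15.6, below the strongest members, and all except Hist1h1d_+1.3Kb had PU.1, p300, and H3K27Ac in both untreated samples.

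The members were then divided by what they carried in untreated macrophages, using peaks found in both untreated samples. PU.1, p300, and H3K27Ac were all present at 1344 members (17.5%), against 52.0% of the regions also bound without LPS. PU.1 and p300 without H3K27Ac were at 1110 (14.4%), and p300 alone at 560 (7.28%). None of the 3 had a peak in either sample at 1994 members (25.9%), against 2.1% of the regions also bound without LPS. Of all p65 regions, 23.1% had all 3 and 24.9% had none. The remaining 2685 were mixed or differed between the samples. With the p300 sample of untreated replicate 1 left out, 1384 members had all 3, 1122 had p300 alone, and 2009 had none. HDAC1, HDAC2, and HDAC3 were together at 294 members (3.82%), against 36.2% of the regions also bound without LPS and 10.2% of all p65 regions.

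These classes differed in sequence, which the classes did not use. The strict κB pattern was in 2.08% of the members with PU.1, p300, and H3K27Ac and in 20.8% of those with none. Over all p65 regions the same classes held it in 2.88% and 13.2%. AP-1 was in 47.9% of the former and 30.0% of the latter, and was highest in members with p300 alone (57.9%). Over all p65 regions AP-1 was in 25.2% with all 3, 26.9% with none, and 38.7% with p300 alone, so the difference between the first 2 classes was not seen there. The PU.1 pattern was in 15.5% of members with PU.1, p300, and H3K27Ac and in 4.01% of those with none, and over all regions in 17.4% and 3.57%. The median p65 score over the LPS samples was 11.1 and 13.7.

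The share with RNAPII after LPS also differed between the classes. Members with PU.1, p300, and H3K27Ac had a RNAPII-pS2 peak in 58.2% and 59.8% of cases in ctrl/ctrl, 67.2% and 68.2% in IL-4 PT/ctrl, 86.9% in both ctrl/LPS samples, and 79.5% and 79.6% in IL-4 PT/LPS. Members with none of the 3 had one in 0.702% of cases in both ctrl/ctrl samples, 1.4% and 1.81% in IL-4 PT/ctrl, 26.0% and 27.6% in ctrl/LPS, and 36.2% and 36.1% in IL-4 PT/LPS. Among the former the share was thus lower after IL-4 PT, and among the latter higher, with no overlap of the samples in either. RNAPII-pS5 had the same order, with 49.8% and 52.2% in ctrl/LPS and 44.3% and 44.9% in IL-4 PT/LPS for the former, and 7.07% and 8.27% then 13.1% and 14.2% for the latter. Members with p300 alone had RNAPII-pS2 in 68.0% and 69.5% of cases in ctrl/LPS and in 75.2% and 73.6% in IL-4 PT/LPS.

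**Figure D4:**
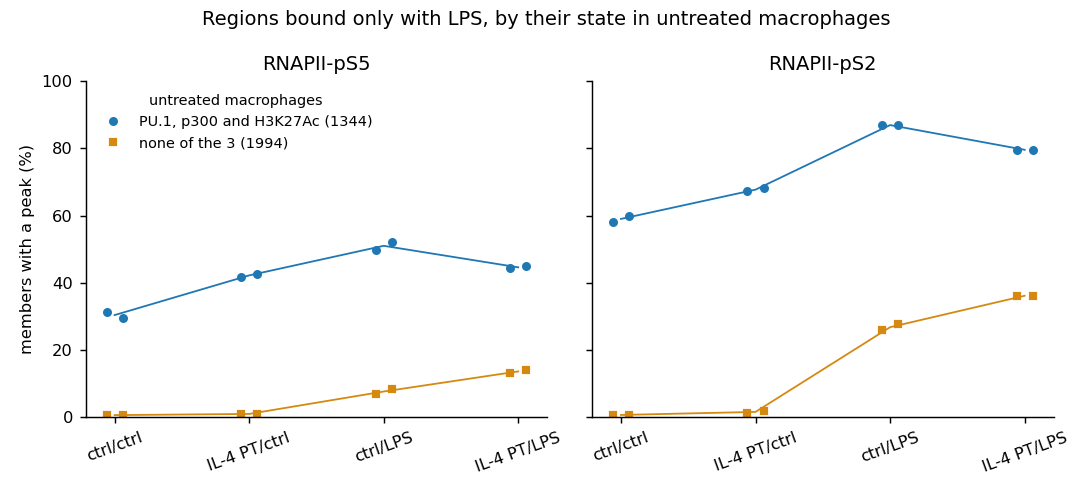
Share of LPS-only regions (%) with a RNAPII-pS5 peak (left) or RNAPII-pS2 peak (right) in each sample, for members with PU.1, p300, and H3K27Ac in untreated macrophages (blue circles, 1344) and members with none of the 3 (orange squares, 1994); points are samples and lines join group means. With LPS, RNAPII-pS2 was lower after IL-4 PT in the former (86.9% to 79.5% and 79.6%) and higher in the latter (26.0% and 27.6% to 36.2% and 36.1%).

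Scores gave the same division. Over all tested members, 1130 (20.6%) were higher and 721 (13.2%) lower in RNAPII-pS2 in IL-4 PT/LPS against ctrl/LPS, with backgrounds of 17.7% and 12.1%, and 532 (16.9%) were higher and 541 (17.2%) lower in RNAPII-pS5, with backgrounds of 15.4% and 11.8%. Of 761 tested members with none of the 3, 351 were higher and 105 lower in RNAPII-pS2, and of 1261 with all 3, 97 were higher and 172 lower. All p65 regions of the class with none of the 3 were higher in 53.0% and lower in 9.67% of cases, and those with all 3 in 8.05% and 14.0%, so the division is not particular to LPS-only regions. RNAPII-pS2 gave 29235 and 28737 peaks in IL-4 PT/LPS and 26873 and 27175 in ctrl/LPS, and the part of this difference in the result was not tested. When peaks scoring below their sample's median were left out, members with all 3 turned to 157 lower and 181 higher. When a peak was required in every sample, the calls over all members turned to 72 higher and 111 lower, and only 1 member with none of the 3 could be tested, and it was not called.

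The interaction of LPS and IL-4 PT asks whether the LPS change differed with pretreatment, and a negative value means that the change with LPS was less positive or more negative after IL-4 PT than without it. In RNAPII-pS2, 1161 members (21.2%) had a negative and 797 (14.6%) a positive interaction, with backgrounds of 12.9% and 16.0%. With only the upper 50% of peaks this turned to 525 negative and 749 positive, so no direction can be given for RNAPII-pS2. In RNAPII-pS5, 602 (19.1%) were negative and 426 (13.5%) positive, with backgrounds of 13.9% and 13.5%. IL-4 PT without LPS gave higher RNAPII-pS2 at 1072 members (19.6%) and lower at 339 (6.19%), with backgrounds of 14.9% and 14.5%, and higher RNAPII-pS5 at 438 (13.9%) and lower at 145 (4.61%), with backgrounds of 14.5% and 10.8%. These comparisons share samples, so a member with a peak in IL-4 PT/ctrl and none in ctrl/ctrl enters both. Gdf3_-5.9Kb was of this kind, with RNAPII-pS2 scores of 27.6 and 28.9 in IL-4 PT/ctrl and none in ctrl/ctrl (interaction −4.97). Among members with PU.1, p300, and H3K27Ac, 24.8% were negative and 6.03% positive in RNAPII-pS2, and over all p65 regions of this class 11.9% and 10.7%. Among members with none of the 3, 37.1% were positive and 11.8% negative, and over all regions of this class 43.3% and 10.1%. These members had RNAPII-pS2 in at most 1.81% of cases in a sample without LPS, so most entered the fit through their LPS samples. Their interaction (median 0.79) therefore largely repeats the difference between IL-4 PT/LPS and ctrl/LPS (median 0.88) and is no further result. With a peak required in every sample, only 1 of them could be tested.

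p65 was higher at some members and lower at others after IL-4 PT. Since a member had to have a peak in all 4 LPS samples, the rule itself favours small differences between the LPS groups. Of the 7693 members, 885 (11.5%) were higher and 811 (10.5%) lower in IL-4 PT/LPS against ctrl/LPS, with backgrounds of 26.6% and 9.62% over 35556 regions. Refitted among the 18096 regions with peaks in all 4 samples, 15.5% of members were higher and 14.5% lower, with backgrounds of 12.0% and 15.1%. Each sample was centred on regions shared by all samples, and the mean centre was 3.69 on the log2 scale in ctrl/LPS and 4.15 in IL-4 PT/LPS. Without centring, 1858 members were higher and 288 lower, and without either IL-4 PT/LPS sample the lower calls outnumbered the higher (747 against 607 without replicate 1 and 720 against 618 without replicate 2), so no direction can be given for the set. With 2 samples in each group, an exact permutation test of a single region could not go below p = 0.333.

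The regions named next are the members with the lowest p in this comparison, 5 in each direction. Col27a1_+1.1Kb (chr4:63216236-63216800), in an intron of a collagen gene, had p65 scores of 7.84 and 8.7 in ctrl/LPS and 94.3 and 88.0 in IL-4 PT/LPS, a log2 change of 3.01 ± 0.24 after centring (adjusted p = 0.018). RNAPII-pS2 was present there only in the IL-4 PT/LPS samples (11.0 and 12.3). Edn1_-18.5Kb, near the endothelin 1 gene, had 6.95 and 6.43, then 54.8 and 65.3 (2.71 ± 0.23), and Usp47_-38.4Kb, near a deubiquitinase gene, had 5.82 and 6.02, then 52.6 and 55.3 (2.73 ± 0.22). Neither sample of one group reached the other group at these regions, a separation that choosing them by p favours. Rps6ka2_-7.9Kb, near a ribosomal S6 kinase gene, and Olfr460_-5.2Kb completed the 5 with the lowest p among those higher (2.55 ± 0.23 and 2.47 ± 0.22). Among those lower, Pacsin2_-15.1Kb had 32.0 and 28.7, then 5.33 and 6.32 (−2.84 ± 0.24, adjusted p = 0.018). Slco3a1_+5.2Kb, in an intron of an organic anion transporter gene, had 31.6 and 34.6, then 6.9 and 8.0 (−2.61 ± 0.23). Lrif1_+0.5Kb had 30.9 and 31.9, then 7.07 and 6.45 (−2.67 ± 0.24). Gm8817_+124.9Kb and Cited2_-69.7Kb, the latter near the gene of a p300-binding regulator, were lower as well (−2.68 ± 0.25 and −2.67 ± 0.25). At Slco3a1_+5.2Kb and Cited2_-69.7Kb the RNAPII-pS2 peaks of ctrl/LPS were missing in both IL-4 PT/LPS samples.

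Genes of the NF-κB pathway are taken first. Of 19 genes of NF-κB subunits and inhibitors, 11 were the nearest gene of 42 members. RNAPII-pS2 rose with LPS at 21 of the 31 tested and fell at 1, where the background was 25.8% and 16.0%, and RNAPII-pS5 rose at 10 of 21 and fell at none (backgrounds of 17.0% and 21.0%). Over all tested members RNAPII-pS2 rose at 55.8% and RNAPII-pS5 at 36.5%, and the counts of each gene group are to be read against both sets of shares. As above, members that entered through LPS samples alone could not fall. The 42 members were 0.546% of members, and 0.395% of all p65 regions lay at these genes. Over those regions RNAPII-pS2 rose at 53 of 133 tested and fell at 24, and RNAPII-pS5 rose at 36 of 100 and fell at 15. Tnfaip3_-30.8Kb (chr10:19045899-19046541), upstream of the gene of the ubiquitin-editing inhibitor A20, had no RNAPII peak in the 4 samples without LPS. With LPS its RNAPII-pS2 scores were 28.1, 28.3, 20.5, and 25.6, and p65 was at 71.5 and 67.0 in ctrl/LPS and 124 and 108 in IL-4 PT/LPS (0.29 ± 0.25 after centring, adjusted p = 0.48). Tnip1_+8.7Kb, in the gene of a partner of A20, had RNAPII-pS5 scores of 3.46 in 1 ctrl/LPS sample and 10.2 and 12.1 in IL-4 PT/LPS (2.12 ± 0.41, adjusted p = 0.022). Ikbke_-109.6Kb, assigned to the gene of an IκB kinase family member, already had PU.1 (39.5 and 26.6) and p300 without LPS, as did Nfkbib_+1.1Kb, in the gene of IκBβ (18.2 and 20.8 for PU.1).

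Cytokine genes had 54 members at 20 of 23 genes. These were 0.702% of members, against 0.408% of all p65 regions. RNAPII-pS2 rose at 27 of 38 tested and fell at none, and RNAPII-pS5 rose at 11 of 23. Over all p65 regions at these genes RNAPII-pS2 rose at 49 of 123 tested and fell at 7, and RNAPII-pS5 rose at 35 of 78. Il12b_-9.8Kb (chr11:44389903-44390678), upstream of the gene of the p40 subunit of IL-12 and IL-23, had RNAPII-pS2 scores of 126 and 124 in ctrl/LPS and 106 and 116 in IL-4 PT/LPS. Without LPS it had a score of 2.66 in 1 ctrl/ctrl sample and no other peak. RNAPII-pS5 was at 32.1 and 36.1 in ctrl/LPS and 16.0 and 16.4 in IL-4 PT/LPS, lower by 1.26 ± 0.22 on the log2 scale (−1.26, adjusted p = 0.014), and p65 at 108 and 104, then 69.5 and 89.2 (−0.88 ± 0.24, adjusted p = 0.09). Il12a_+18.2Kb, near the gene of the p35 subunit, and Il1b_-39.4Kb, near that of IL-1β, rose in RNAPII-pS2 with LPS (3.93 ± 0.28 and 4.31 ± 0.3), and neither passed the test for IL-4 PT under LPS in any of the 3 antibodies. Il15_+29.6Kb, in the gene of IL-15, had a RNAPII-pS2 score of 2.68 in 1 ctrl/LPS sample and 5.88 and 5.65 in IL-4 PT/LPS (1.64 ± 0.37, adjusted p = 0.028).

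Chemokine genes had 24 members at 12 of 21 genes, with RNAPII-pS2 higher with LPS at 10 of 14 tested and lower at 1. These were 0.312% of members, against 0.206% of all p65 regions, where RNAPII-pS2 was higher at 28 of 72 tested and lower at 8. Ccl2_-2.5Kb (chr11:82032705-82033463), upstream of the gene of the monocyte attractant CCL2, had p65 scores of 18.5 and 17.5 in ctrl/LPS and 77.9 and 74.5 in IL-4 PT/LPS (1.63 ± 0.24, adjusted p = 0.026). It had PU.1, p300, and HDAC3 in untreated macrophages and no RNAPII peak in any sample of the LPS experiment. Ccl5_-6.0Kb, near the gene of the T cell attractant CCL5, had 27 and 36.1, then 81.8 and 91.4 (1.01 ± 0.27, adjusted p = 0.083). Ccl4_-6.5Kb had RNAPII-pS2 scores of 10.9 and 11.1 after IL-4 PT alone, 28.2 and 24.3 in ctrl/LPS, and 12.1 and 12.8 in IL-4 PT/LPS. Under LPS, RNAPII-pS2 was lower after IL-4 PT (−1.02 ± 0.23, adjusted p = 0.027), while p65 did not pass the test (−0.56 ± 0.23, adjusted p = 0.19).

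Receptor and adhesion genes had 32 members at 18 of 26 genes, with RNAPII-pS2 higher at 9 of 23 tested and lower at 2. These were 0.416% of members, against 0.393% of all p65 regions, where RNAPII-pS2 was higher at 35 of 123 tested and lower at 24. Cd40_-5.9Kb (chr2:165049406-165049939), near the gene of the costimulatory receptor CD40, had p65 scores of 27.4 and 29.5 in ctrl/LPS and 104 and 102 in IL-4 PT/LPS (1.4 ± 0.23, adjusted p = 0.032). Its RNAPII-pS2 scores were 4.03 in 1 ctrl/LPS sample and 8.54 and 12.1 in IL-4 PT/LPS (2.16 ± 0.5, adjusted p = 0.031). No PU.1, p300, H3K27Ac, or HDAC peak was found there in untreated macrophages. Tlr1_+60.2Kb, assigned to a Toll-like receptor gene, was higher in RNAPII-pS2 after IL-4 PT (16.5 and 16.4, then 32.0 and 28.8). Clec4e_-0.9Kb, at the promoter of the gene of the C-type lectin Mincle, had p65 scores of 35.9 to 59.9 and no RNAPII peak in any sample of the LPS experiment.

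Early transcription factor genes, the longest functional list, had 74 members at 24 of 33 genes. These were 0.962% of members, against 0.739% of all p65 regions. RNAPII-pS2 was higher with LPS at 34 of 54 tested and lower at 3, and over all p65 regions at these genes higher at 81 of 251 and lower at 35. Ier5_-9.0Kb (chr1:155108409-155108972), near an immediate early gene, had p65 scores of 13.8 and 10.6, then 62.9 and 58.2 (1.87 ± 0.28, adjusted p = 0.027), and RNAPII-pS2 scores of 37.4 and 36.9, then 110 and 106 (1.6 ± 0.25, adjusted p = 0.0066). Klf7_-79.4Kb, near a Krüppel-like factor gene, had p65 scores of 10.2 and 5.62, then 50.7 and 68.9 (2.51 ± 0.41, adjusted p = 0.033), and RNAPII of both forms only in IL-4 PT/LPS. Irf8_-24.8Kb, near the gene of a factor needed for macrophage differentiation, had RNAPII-pS2 at 14.6 and 19.6 in IL-4 PT/ctrl, 23.2 and 21.8 in ctrl/LPS, and 46.6 and 41.2 in IL-4 PT/LPS, with none in ctrl/ctrl. Ier2_-0.2Kb, a promoter, went the other way with LPS, from RNAPII-pS2 scores of 30.9 and 34.4 to 13.0 and 15.3 (−1.4 ± 0.29, adjusted p = 0.014).

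Feedback and mRNA decay genes had 66 members at 26 of 30 genes, with RNAPII-pS2 higher at 28 of 46 tested and lower at none. These were 0.858% of members, against 0.702% of all p65 regions, where RNAPII-pS2 was higher at 86 of 218 tested and lower at 30. Dusp1_-6.4Kb, near the gene of a phosphatase of MAP kinases, had RNAPII-pS2 scores of 5.03 in 1 ctrl/ctrl sample, 11.9 and 16.4 in IL-4 PT/ctrl, 36.5 and 27.7 in ctrl/LPS, and 18.9 and 17.9 in IL-4 PT/LPS. Peli1_-77.9Kb and Zc3h12c_-76.2Kb, near genes of a ubiquitin ligase and an RNA-binding protein, rose in RNAPII-pS2 with LPS (3.48 ± 0.35 and 3.15 ± 0.69), and neither passed the test for IL-4 PT under LPS.

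Inflammasome genes had 8 members at 6 of 13 genes, 0.104% of members against 0.126% of all p65 regions. RNAPII-pS2 rose with LPS at 6 of the 8, and over all p65 regions at these genes at 13 of 44 tested. Nek7_+23.4Kb, in the gene of a kinase that binds NLRP3, rose by 3.89 ± 0.26 with p65 scores of 48.8 to 56.7. Casp4_+3.1Kb, in the gene of the caspase that senses intracellular LPS, had RNAPII-pS2 scores of 18.5 and 19.1 in ctrl/LPS and 9.69 and 8.2 in IL-4 PT/LPS (−1.02 ± 0.23, adjusted p = 0.029). Gbp5_-26.8Kb, near the gene of a guanylate-binding protein, had 16.8 and 19.9, then 35.9 and 30.9 (0.93 ± 0.25, adjusted p = 0.049). Nlrp3_+11.7Kb had RNAPII-pS2 scores of 3.39 to 12.5 in 7 of the 8 samples, and its LPS change did not pass the test (0.69 ± 0.63, adjusted p = 0.48).

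Prostaglandin, nitric oxide, and metabolic genes had 16 members at 7 of 14 genes, and RNAPII-pS2 rose with LPS at all 11 tested. These were 0.208% of members, against 0.165% of all p65 regions, where RNAPII-pS2 rose at 24 of 55 tested and fell at 12. Ptgs2_+51.4Kb (chr1:150151202-150151765), downstream of the gene of the inducible cyclooxygenase, had p65 scores of 26.2 and 23.9, then 65.5 and 73.3 (1.01 ± 0.23, adjusted p = 0.061). RNAPII-pS2 was at 48.4 and 47.8 after IL-4 PT alone, 45.8 and 46.1 in ctrl/LPS, and 91.9 and 81.8 in IL-4 PT/LPS, with none in ctrl/ctrl. Nos2_-31.6Kb, near the gene of inducible nitric oxide synthase, had RNAPII-pS2 scores of 5.24 and 7.14 in ctrl/LPS and no peak in the other 6 samples. Gch1_+29.2Kb, in the gene of the first enzyme of tetrahydrobiopterin synthesis, was lower in p65 after IL-4 PT (25.9 and 24.4, then 15.5 and 14.6, −1.2 ± 0.24, adjusted p = 0.046).

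**Figure D5:**
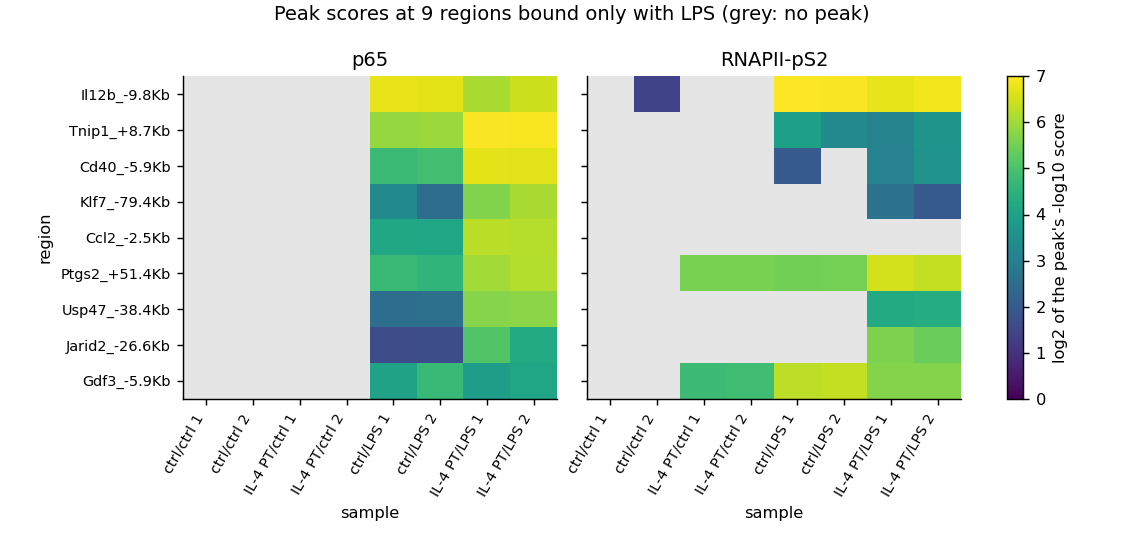
Peak scores of p65 (left) and RNAPII-pS2 (right) at 9 LPS-only regions in each of the 8 samples, coloured by the log2 of the −log10 score; grey means no peak. p65 is grey without LPS by the rule, and Cd40_-5.9Kb and Ccl2_-2.5Kb are brighter in IL-4 PT/LPS (104 and 102, 77.9 and 74.5) than in ctrl/LPS (27.4 and 29.5, 18.5 and 17.5).

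The study also sorted its LPS-induced genes by their RNA after IL-4 PT, with RNA taken after 3 hr of LPS rather than 1 hr. These lists come from the same study, and they are not treated as independent evidence. Members assigned to 318 genes attenuated after IL-4 PT numbered 732, of which 44 were higher and 99 lower in p65 in IL-4 PT/LPS against ctrl/LPS. Members at the insensitive genes numbered 767, with 107 higher and 85 lower. Members at the increased genes numbered 146, with 33 higher and 7 lower. Over all p65 regions tested at these genes the counts were 489 higher and 373 lower of 2819, 707 and 298 of 2850, and 226 and 45 of 676. RNAPII-pS5 was higher at 39 and lower at 73 of 311 members tested at attenuated genes, and higher at 19 and lower at 7 of 57 at increased genes. The same counts over all p65 regions were 142 and 282 of 1587, and 76 and 35 of 366. RNAPII-pS2 was higher at 81 and lower at 72 of 507 members at attenuated genes, and higher at 29 and lower at 8 of 96 at increased genes, where all regions gave 315 and 304 of 2255, and 142 and 49 of 545.

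After 1 hr of IL-4 without LPS, calls were more often lower than higher at the members for H3K27Ac and RNAPII-pS5, under every alternative run. H3K27Ac was lower at 902 of 2540 members tested (35.5%) and higher at 538 (21.2%), with backgrounds of 30.1% and 23.9% over all p65 regions. RNAPII-pS5 was lower at 375 of 2115 (17.7%) and higher at 189 (8.94%), with backgrounds of 11.3% and 8.11%. HDAC1 was lower at 268 of 1954 (13.7%) and higher at 103 (5.27%), with backgrounds of 8.94% and 3.87%. Its calls were 154 lower and 153 higher without untreated replicate 1, 150 and 108 without untreated replicate 2, and 23 and 32 with a peak required in every sample. HDAC1 gave 30511 and 26836 peaks in the untreated samples and 23270 and 22340 after 1 hr of IL-4. The part of this difference in the calls was not tested. HDAC3 was higher at 185 of 1102 (16.8%) and lower at 80 (7.26%), with backgrounds of 13.4% and 4.31%. Its calls were 102 higher and 91 lower without 1 hr IL-4 replicate 2, and 32 and 37 with only the upper 50% of peaks. The direction thus turned with the setting for HDAC1 and for HDAC3, and none can be given for either.

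For PU.1, HDAC2, and p300 the direction turned with single samples, so none can be given. PU.1 was higher at 284 of 3716 (7.64%) and lower at 234 (6.3%), with backgrounds of 7.44% and 4.24%, and turned to 157 higher and 284 lower without 1 hr IL-4 replicate 2. HDAC2 was lower at 197 of 2046 (9.63%) and higher at 156 (7.62%), with backgrounds of 5.35% and 6.97%. It turned to 121 lower and 160 higher without untreated replicate 1, and to 125 and 184 without untreated replicate 2. p300 was lower at 946 of 5372 (17.6%) and higher at 869 (16.2%), with backgrounds of 10.2% and 16.9%. Its calls turned to 855 lower and 953 higher without the untreated sample of few peaks, and turned likewise without untreated replicate 2 (993 and 1225) or without 1 hr IL-4 replicate 1 (435 and 483). No member passed Benjamini-Hochberg adjustment for PU.1 or the HDACs in limma.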

How the data were processed

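ChIP-seq peak lists of 56 samples and 9 antibodies were used, except 4 RNAPII-pS2 lists of the 1 hr experiment, whose peak names carry the treatment opposite to their labels. Reads were aligned to mm10 and processed with BWA 0.7.10, SAMtools 0.1.19, HOMER 4.2, and MACS2 2.0.10, per the submitters' processing notes. The deposited scores of all antibodies except H3K27Ac are −log10 of a p- or q-value as the authors' MACS2 gave it (which of the 2 was not stated), and no control library is stated. The deposited H3K27Ac values are HOMER signal over regions of 1001 bp. Scores grow with depth as well as with binding.

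p65 peaks overlapping by at least 1 bp were merged, and a region took the highest overlapping score of each antibody and sample. The members and gene lists were chosen with earlier results of these data known. Regions with a peak in at least 2 samples were fitted for each antibody on the whole table with limma 3.58.1 (R 4.3.3) on log2 scores, with missing peaks set to the lowest score and each sample centred on the median of regions shared by all samples. Calls used a two-sided p of at most 0.05, and adjusted p is by Benjamini-Hochberg over all regions tested. Samples of each antibody and treatment were 2, so precision is limited by their number. The fits were tested on simulated data. Named members were the 10 with the highest p65 scores, at most 5 for each gene list by p65 score, the 5 with the lowest p in each direction or interaction, and the 5 genes with most members. Of the members meeting these rules, 1 is not reported here. Patterns and figures were made with Python 3.11.15, NumPy 2.4.6, pandas 2.3.3, and matplotlib 3.10.9. Alternatives changed the centring, missing peaks, peak cut-off, overlap, adjustment, replicate block, and samples.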

Additional observations from a re-analysis of the deposited data

Results flagged for a closer look

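These results stand out because the LPS response differed between macrophages with and without IL-4 PT by the interaction term itself (limma, p of at most 0.05). In RNAPII-pS5, 602 members (19.1%) had a negative and 426 (13.5%) a positive interaction, with backgrounds of 13.9% and 13.5% over all regions tested. In RNAPII-pS2, 1161 (21.2%) were negative and 797 (14.6%) positive, with backgrounds of 12.9% and 16.0%. The positive shares were thus close to or below their backgrounds. The RNAPII-pS2 counts turned to 525 negative and 749 positive with only the upper 50% of peaks. The members with the lowest p follow, with the interaction on the log2 scale. Samples without a peak were set to the lowest score, so interactions that use them have no true size.

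At Gdf3_-5.9Kb (RNAPII-pS2, −4.97) the rise with LPS was smaller after IL-4 PT, from 27.6 and 28.9 to 52.0 and 51.6, against no peak to 78.9 and 81.9 without it. At 3 others the score rose from no peak without IL-4 PT and fell to no peak after it. Their peaks were weak (scores of 5.31 to 14.9), and a peak near the cut-off can be missed. Btg1_+11.5Kb, near the gene of an antiproliferative factor (RNAPII-pS2, −5.43), rose to 13.3 and 14.9, and fell from 5.31 and 6.66. Atp5o_-31.1Kb, near a gene of ATP synthase (RNAPII-pS5, −5.28), rose to 5.98 and 8.18, and fell from 11.9 and 8.68. Ascc2_+23.7Kb (RNAPII-pS5, −5.73) rose to 9.93 and 9.14, and fell from 10.4 and 10.1. Jarid2_-26.6Kb, near the gene of a Polycomb-associated factor (RNAPII-pS2, 5.05), had a peak only in the IL-4 PT/LPS samples (49.5 and 42.4).

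At 5 others the region lies beside a RNAPII peak that covers it in some samples and ends short of it in others. Parp16_-13.9Kb had an interaction of −6.27 in RNAPII-pS5, with ctrl/ctrl peaks of score 116 and 89.5 that end 233 and 254 bp away. With regions extended by 500 bp on each side, a setting chosen after seeing the data, its interaction was −0.12. Nabp1_+2.0Kb went from −5.33 to −2.69 in RNAPII-pS5, and peaks of the 6 samples without an overlap lay 324 to 925 bp away. Dgkh_-9.3Kb went from −4.59 to 2.46 in RNAPII-pS2, with IL-4 PT/LPS peaks 14 and 279 bp away. Cxcl1_-10.1Kb went from −5.30 to −1.64 in RNAPII-pS2, with IL-4 PT/LPS peaks 102 and 178 bp away. Bcl2a1d_-13.2Kb went from 3.95 to 1.37 in RNAPII-pS5, with weak ctrl/LPS peaks (10.9 and 6.81) 320 and 64 bp away. In the samples without LPS the nearest RNAPII-pS5 peaks lay 12971 to 24388 bp from it.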

How the results depend on the processing

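Counts are members called in the direction reported, with the opposite direction in parentheses. The rule gave 12058 members when 3 of 4 LPS samples sufficed, 4400 with the upper 50% of each sample's peaks, and 2811 with that applied to LPS samples alone. Depth is unknown, and a peak near the cut-off can be missed. Benjamini-Hochberg adjustment left 294 (209) for p65, 328 lower (365) for RNAPII-pS5 after IL-4 PT under LPS, 248 for IL-4 PT alone, 369 for its interaction, 718 for RNAPII-pS2 after IL-4 PT under LPS, 720 for its interaction, 76 for RNAPII-pS5 at 1 hr, 106 lower (239) for p300, and 0 for PU.1, HDAC1, HDAC2, and HDAC3. Without centring, p65 gave 1858 (288), RNAPII-pS5 after IL-4 PT under LPS 466 lower (605), p300 63 lower (694), HDAC2 154 (159), and p65 at members with PU.1, p300, and H3K27Ac 56 lower (188).

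With an overlap of 50%, mean shares of members with a peak were 26.9% for H3K27Ac, 20.1% for RNAPII-pS5, and 43.9% for RNAPII-pS2, the RNAPII-pS2 change with LPS was −0.19 at Ccl5_-6.0Kb, 2.03 at Cxcl1_-14.8Kb, and −1.89 at Ccl4_-0.2Kb, and interactions were −0.88 at Gm8817_+124.9Kb and −0.19 at Hist1h1d_+1.3Kb in RNAPII-pS2 and 0.30 at Parp16_-13.9Kb in RNAPII-pS5. With a peak in every sample fewer regions were tested. RNAPII-pS5 then gave 86 for LPS, 79 for LPS after IL-4 PT, 26 lower (35) for IL-4 PT under LPS, 45 for IL-4 PT alone, 36 for the interaction, and 129 at 1 hr, and RNAPII-pS2 406, 262, 72 (111), 223, and 164 for the first 5. PU.1 gave 171, HDAC1 23 (32), HDAC2 32 (33), and HDAC3 30 (30).

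With regions extended by 500 bp, RNAPII-pS5 after IL-4 PT under LPS gave 562 lower (566). RNAPII-pS5 interactions were 0.73 at Tm9sf4, −1.15 at E330021D16Rik, and 2.38 at Dgkh, RNAPII-pS2 interactions 0.78 at Tnfaip3_-48.2Kb, 0.29 at Parp16, and 2.46 at Dgkh, RNAPII-pS2 changes with LPS −0.26 at Tnfaip3_-48.2Kb and −0.42 at Parp16, and the p65 difference 2.49 at Bcl2a1d. With the upper 50% of peaks, RNAPII-pS5 gave 494, 381, 357 lower, 141, and 342 in the order above and 100 at 1 hr, and RNAPII-pS2 1571 for LPS, 1761 for LPS after IL-4 PT, 526 for IL-4 PT alone, and 525 lower (749) for the interaction. H3K27Ac gave 453, PU.1 172 (225), HDAC1 16 (31), HDAC2 29 (32), HDAC3 32 (37), and RNAPII-pS2 at members with PU.1, p300, and H3K27Ac 157 lower (181). Interactions were 0.62 at Tmem2, 0.14 at Plcl1, and −0.44 at Gm8817 in RNAPII-pS2 and −0.87 at Uba6 in RNAPII-pS5, and the RNAPII-pS2 change with LPS was −0.33 at Edn1_-18.5Kb. In windows of 200 bases the strict κB pattern was in 8.23% of members. The causes were not tested.

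Replicate numbers did not pair the samples (correlations of deviations −0.026 to 0.094). With the replicate block, p300 gave 751 lower (843), and p65 621 (553). Leaving out each sample in turn, where a lone sample is assumed to vary like the others, gave 602 to 622 for p65, 500 to 543 lower for RNAPII-pS5 after IL-4 PT under LPS, 157 to 358 for PU.1, 435 to 993 lower for p300, 150 to 310 for HDAC1, 121 to 237 for HDAC2, and 102 to 197 for HDAC3.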
